A study of Rattus norvegicus with 119 samples.

Results

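miR-378 and miR-335 are microRNAs (miRNAs), short RNAs that pair with messenger RNAs and lower their translation or stability, and both are made from an intron of a protein-coding host gene. They were chosen by name, for their host genes Ppargc1b and Mest and not for any measured value. Earlier results of these data were known when they were chosen. They make up 2 of the 301 rat miRNAs in the deposited array table (rows rno-miR-378 and rno-miR-335). Another row, miR-378*, is the other arm of the miR-378 hairpin and is given beside it. The arrays measured RNA of urothelium, the epithelium that lines the bladder, scraped from Sprague-Dawley rats of both sexes. The groups were pioglitazone (given as the hydrochloride) at 16 mg/kg/day, pioglitazone at 63 mg/kg/day, rosiglitazone (given as the maleate) at 10 mg/kg/day and vehicle (0.5% methylcellulose), each given by mouth once a day for 3, 28 or 90 days, with necropsy the day after the last dose. These make 24 groups of treatment, sex and day. Each array is a separate rat, and every group had 5 arrays that passed the submitters' quality label except vehicle males at day 28 (4), males given pioglitazone 16 for 28 days (4) and females given pioglitazone 16 for 28 days (3).

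Pioglitazone and rosiglitazone are thiazolidinediones, which activate PPAR gamma, the nuclear receptor that drives fat cell differentiation and is also present in urothelium. Ppargc1b, the host of miR-378, encodes PGC-1 beta, a coactivator of genes of mitochondrial and fatty acid metabolism, and the miR-378 hairpin has been studied in mouse fat and liver as a regulator of energy use. Mest, the host of miR-335, is an imprinted gene expressed from the paternal copy, active in the mesoderm of the embryo and in expanding mouse fat. In human breast cancer cells miR-335 is known as a suppressor of metastasis. An intronic miRNA is often, though not always, transcribed together with its host.

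The mature sequences of the miR-378 hairpin show which molecules the rows stand for. The array's miR-378 is the 3′ arm, which RefSeq names miR-378a-3p and places at chr18:57128925-57128945 on the minus strand of the GRCr8 assembly, and the array's miR-378* is the 5′ arm, miR-378a-5p, at chr18:57128962-57128983 on the same strand. Both lie inside Ppargc1b, on the strand of that gene. In the lines below, capitals mark the seed, bases 2 to 8, which sets most of a miRNA's target choice.
miR-378: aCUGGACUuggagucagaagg
miR-378*: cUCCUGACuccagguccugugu
Among 724 mature rat miRNAs in RefSeq, each of these seeds belonged to 1 miRNA, so neither arm shares its seed with another, nor with the other arm. Of the 2 members, 1 was matched to a RefSeq sequence.

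Values are log2 intensities as deposited, so a difference of 1 is a doubling of the signal. They ran from 2.69 to 16.87 over the table, and each array's lowest value lay between 2.69 and 3.11, close to where a difference is compressed. Array medians ran from 3.70 to 5.66, and 23 of the 116 arrays had a median under 4.5. Epithelial content was checked with 4 epithelial miRNAs, which do not tell urothelium from other epithelium. miR-205 was at least 9.21, miR-200b at least 9.80 and miR-141 at least 8.88 on every array. miR-200c ranged from 3.59 to 12.15, and on 1 array it lay within 1 log2 unit of the array's lowest value. miR-143, which is abundant in smooth muscle and fibroblasts, ranged from 3.58 to 16.87 over the scrapings. Of the muscle list, miR-145 ranged from 3.19 to 13.70, miR-1 from 3.24 to 11.63 and miR-133a from 3.01 to 7.32. In such bulk RNA, fewer cells of a type and less RNA per cell cannot be told apart.

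miR-378 lay well above the lowest values on nearly all arrays, whereas miR-335 lay near them on many. Over 116 arrays miR-378 had a median of 8.64 (3.76 to 10.73), and 1 array lay within 1 log2 unit of its own lowest value. miR-335 had a median of 4.11 (2.95 to 9.24), and 45 of 116 arrays lay within 1 log2 unit of their own lowest value. miR-378* had a median of 5.95 (3.20 to 7.57). The 24 group means of miR-378 ran from 6.68 (males, pioglitazone 16, day 28) to 9.81 (males, pioglitazone 63, day 90), and those of miR-335 from 3.13 (vehicle males, day 28) to 6.28 (vehicle males, day 3). When the groups were put in order, all 23 gaps between neighbours were smaller than the median within-group SD for miR-378 (0.66), as were 22 of 23 for miR-335 (0.64). The exception was the step of 0.76 from 5.52 in vehicle females at day 3 to 6.28 in vehicle males at day 3, the highest group.

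miR-335 was highest at day 3, and in vehicle males it was lower at both later times. It was over 5 on 16 of 40 arrays at day 3, on 1 of 36 at day 28 and on 8 of 40 at day 90. In vehicle males the arrays read 7.68, 4.77, 6.89, 5.68 and 6.39 at day 3, then 3.50, 2.99, 2.95 and 3.06 at day 28, and 3.89, 3.68, 5.31, 4.08 and 4.43 at day 90. Every day-28 array lay below every day-3 array, and 4 of 5 day-90 arrays did. miR-335 fell by 3.15 between day 3 and day 28 (SE 0.59, limma adjusted p = 6.94e-06) and by 2.003 between day 3 and day 90 (SE 0.56, adjusted p = 0.0138). The day-28 arrays lay only 0.12 to 0.47 above their own lowest values, so miR-335 is not clearly above background there and the difference of 3.15 may understate the fall. In vehicle males 51.5% of the 301 miRNAs passed the threshold of 0.05 at day 28 against day 3, 35.5% with lower values at day 28, and 18.9% had day-28 arrays all below the day-3 arrays. At day 90 against day 3 the shares were 8.31% in either direction and 6.98% lower. The lower miR-335 at day 28 is thus 1 of many such calls.

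The day-28 vehicle males also had low arrays as a whole, with array medians of 4.29 ± 0.37 (SD, n = 4) against 5.49 ± 0.18 (n = 5) at day 3, and the median miRNA differed by -0.67. With every array centred on its median, the day-28 difference was -1.95 (adjusted p = 0.00873), a value that also rests on readings near the floor, and the day-90 difference was -1.82 (adjusted p = 0.0724). The day-90 call was also lost without vehicle day-3 replicate 1 (-1.65, adjusted p = 0.068) or replicate 3 (-1.85, adjusted p = 0.123), and without vehicle day-90 replicate 1 (-1.91, adjusted p = 0.0564).

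Markers of other cells moved with the time comparisons of vehicle males. At day 28 against day 3, fibroblast miRNAs were lower in 7 of 7, and 4 passed, among them miR-143 (-5.95) and miR-199a-3p (-5.47), with a median of -3.83 and summed log2 levels of 7.85 to 14.29 at day 28 and 11.62 to 16.30 at day 3. Here and below, a summed level is the log2 of a list's summed signals, in which its brightest members weigh most. Over all 301 miRNAs 35.5% passed lower and 15.9% higher at day 28. Of the muscle list 3 of 9 passed lower, of the endothelial list 1 of 2 (miR-126, -4.31), of the red cell list 3 of 3 and of the leukocyte list 3 of 5. Of 13 epithelial miRNAs 1 passed, miR-141 at 2.04. At day 90 against day 3, fibroblast miRNAs were again lower in 7 of 7 and 0 passed, with a median of -1.69 and summed levels of 10.92 to 13.46 at day 90. Of the red cell list 1 of 3 passed lower (miR-451, -4.02, adjusted p = 0.0336), and epithelial miRNAs were higher in 12 of 13, with a median of 0.83 and 0 passing. The Dlk1-Dio3 cluster, a set of imprinted miRNAs, held 13 lower and 6 higher calls of 32 at day 28, and 17 lower and 0 higher calls at day 90. Of adipocyte miRNAs 12 of 29 passed lower and 2 higher at day 28, and of other intronic miRNAs 21 of 44 lower and 5 higher, whereas 0 of either list passed at day 90. The lower shares of the muscle, adipocyte and Dlk1-Dio3 lists at day 28 lie near that of all miRNAs. At day 90, 6.98% of all miRNAs passed lower and 1.33% higher, and their median difference was -0.043. The part of these lists in the miR-335 result was not tested.

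Vehicle females did not pass. Their miR-335 arrays read 3.88, 9.24, 4.44, 4.28 and 5.78 at day 3, then 4.70, 3.81, 4.23, 4.07 and 3.46 at day 28, and 6.10, 3.80, 5.02, 3.66 and 4.84 at day 90. The groups overlap, and the day-3 spread rests on 1 array of 9.24. The differences from day 3 were -1.47 at day 28 (SE 0.56, adjusted p = 0.597) and -0.84 at day 90 (SE 0.56, adjusted p = 0.815), and 0.0% of all miRNAs passed in either female comparison. miR-378 did not pass in any vehicle time comparison, with differences of -0.52 and -0.43 in females and -1.29 and 0.63 in males at days 28 and 90. The male day-28 comparison did pass without replicate 1 or 4 of every group, or without vehicle day-28 replicate 1 (limma, lowest adjusted p = 0.0169). Averaged over the days, vehicle males minus vehicle females gave -0.19 for miR-335 (SE 0.33, adjusted p = 0.735) and -0.47 for miR-378 (SE 0.40, adjusted p = 0.433), where 17.9% of all miRNAs passed.

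**Figure D1:**
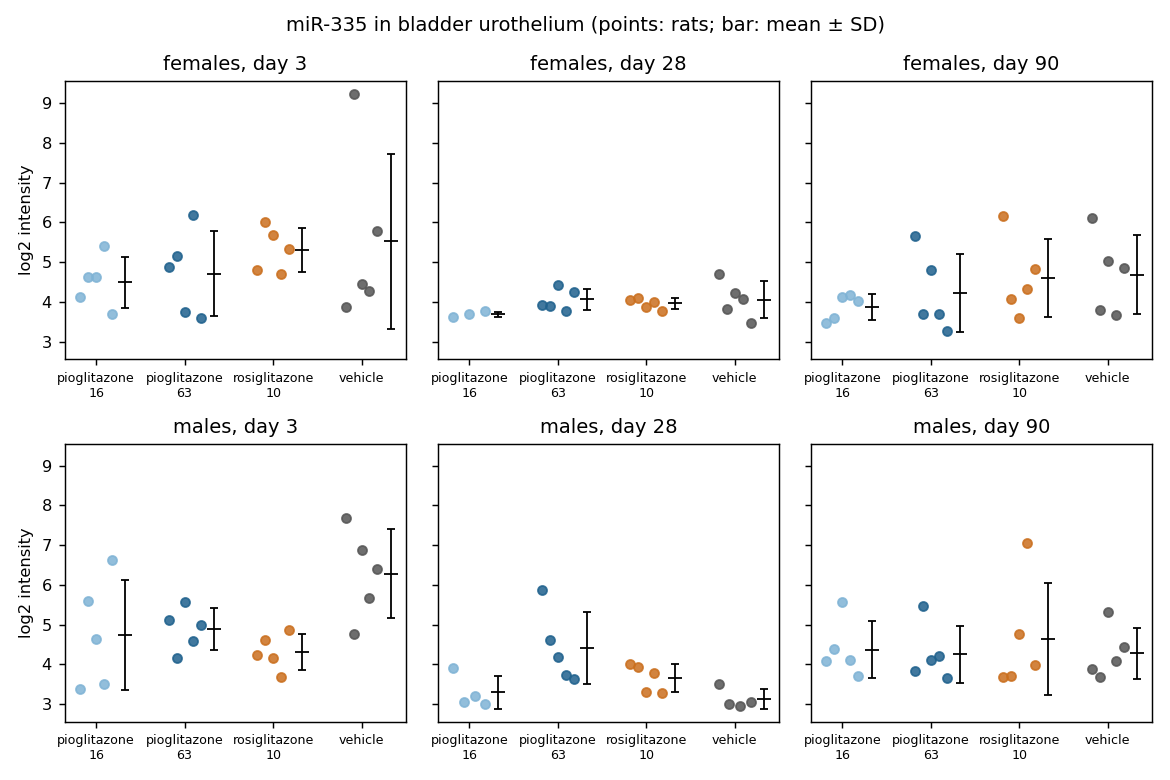
miR-335 on each array (log2 intensity, y axis) by treatment (x axis, dose in mg/kg/day), in 6 panels for sex and day; points are rats in order of replicate number and the bar beside them is mean ± SD. Vehicle males at day 3 are the highest group (4.77 to 7.68) and vehicle males at day 28 the lowest (2.95 to 3.50).

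At day 3, rosiglitazone males had less miR-335 than vehicle males, and all 6 treated groups of that day had a lower mean than the vehicle group of their sex, which in females holds 1 array of 9.24 (replicate 2). Males given rosiglitazone 10 for 3 days read 4.25, 4.62, 4.15, 3.69 and 4.87, against 7.68, 4.77, 6.89, 5.68 and 6.39 in vehicle males. 4 of 5 rosiglitazone arrays lay below every vehicle array, and 1 overlapped the lowest. Means were 4.32 ± 0.45 in rosiglitazone males and 6.28 ± 1.11 in vehicle males (SD, n = 5 each). miR-335 fell by 1.97 (SE 0.56, 95% interval -3.08 to -0.85, limma adjusted p = 0.0229), to 0.256 times the vehicle signal. In this comparison 3.65% of all 301 miRNAs passed, 2.99% with lower values in rosiglitazone males.

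Neither pioglitazone dose passed at day 3 in males. Males given pioglitazone 16 read 3.38, 5.60, 4.65, 3.50 and 6.62, a mean of 4.75 ± 1.38, and the difference from vehicle was -1.53 (SE 0.56, adjusted p = 0.317). Males given pioglitazone 63 read 5.13, 4.17, 5.57, 4.60 and 4.99, a mean of 4.89 ± 0.53, and the difference was -1.39 (SE 0.56, adjusted p = 0.653). Both sets overlap the vehicle arrays, and in each of these comparisons 0.0% of all miRNAs passed. The 3 male comparisons share the same 5 vehicle arrays, which form the highest of the 24 groups. The doses of the 2 drugs differ, so no test between the drugs was made.

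In day-3 females the means were 4.49 ± 0.64 with pioglitazone 16, 4.71 ± 1.07 with pioglitazone 63 and 5.30 ± 0.56 with rosiglitazone 10, against 5.52 ± 2.20 with vehicle (SD, n = 5 each). The differences were -1.03, -0.81 and -0.22, each with SE 0.56, and none passed (lowest adjusted p = 0.985). Without replicate 2 of every group, which takes out the vehicle array of 9.24, the female differences were -0.13 for pioglitazone 16, 0.0041 for pioglitazone 63 and 0.53 for rosiglitazone, so the lower means in females rest on that replicate. The male minus female difference in the rosiglitazone effect was -1.75 (SE 0.79, adjusted p = 0.25), so a difference between the sexes was not shown with every replicate in the fit. Without replicate 2 of every group it was -2.95 and passed (limma adjusted p = 0.0111), so this result also rests on that replicate. With every replicate 4.98% of all miRNAs passed that test. In the other sex comparisons of the effects 0.0% did at days 3 and 90, and 8.64% (pioglitazone 16), 26.6% (pioglitazone 63) and 22.6% (rosiglitazone) at day 28.

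The rosiglitazone call at day 3 depends on scaling and on single arrays. It was lost with arrays centred on their median (-1.62, adjusted p = 0.279), with quantile normalization (-1.58, adjusted p = 0.224) and when only the groups compared entered the fit (adjusted p = 0.163). It was also lost without vehicle replicate 1 (-1.62, adjusted p = 0.0924) or 3 (-1.81, adjusted p = 0.179), or without rosiglitazone replicate 1 (-1.95, adjusted p = 0.0513), 3 (-1.92, adjusted p = 0.0868) or 4 (-1.81, adjusted p = 0.0942).

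Most marker miRNAs of other cells were lower in this comparison, and none of them passed. All 7 of 7 fibroblast miRNAs measured were lower in rosiglitazone males at day 3 and 0 of 7 passed, with a median difference of -1.53, against -0.16 over all miRNAs. Their summed log2 level was 9.72 to 14.62 in rosiglitazone males and 11.62 to 16.30 in vehicle males. Muscle miRNAs were lower in 8 of 9, red cell miRNAs in 3 of 3, leukocyte miRNAs in 4 of 5 and endothelial miRNAs in 2 of 2, and epithelial miRNAs were higher in 12 of 13, with 0 passing in any of these lists. Lists that mark no single cell type were also mostly lower, the adipocyte list in 21 of 29 and the intronic list in 31 of 44. The endothelial median was -0.079, nearer 0 than that of all miRNAs. The summed epithelial level was 14.50 to 15.92 in rosiglitazone males and 12.62 to 16.23 in vehicle males. The part of these markers in the miR-335 result was not tested.

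Among the lists, the Dlk1-Dio3 cluster, like Mest expressed from 1 parental copy, held 6 of the 11 calls in rosiglitazone males at day 3. These were 6 of its 32 measured miRNAs, all lower, with a median over the list of -0.86. miR-434 fell by 2.04 (SE 0.57), miR-329 by 1.77 (SE 0.52), miR-337 by 1.63 (SE 0.37) and miR-369-5p by 1.17 (SE 0.31). Of the adipocyte list 0 of 29 and of the other intronic miRNAs 0 of 44 passed, with medians of -0.17 in each list. These values are near those of all 301 miRNAs, of which 3.65% passed, with a median of -0.16. The adipocyte and intronic lists share members, among them miR-103 and miR-107, which lie in introns of pantothenate kinase genes.

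At day 28 miR-335 was low in every group, and 1 comparison had groups apart without passing the test. In males given pioglitazone 63 it read 5.88, 4.61, 4.19, 3.73 and 3.65, against 3.50, 2.99, 2.95 and 3.06 in vehicle males. All 5 treated arrays lay above all 4 vehicle arrays, as was so for 6.31% of all miRNAs. These 4 vehicle arrays are also those of the fall between day 3 and day 28 in vehicle males. The difference was 1.29 (SE 0.59, adjusted p = 0.0775). The other means at day 28 were 3.30 ± 0.42 with pioglitazone 16 (n = 4) and 3.66 ± 0.35 with rosiglitazone (n = 5), against 3.13 ± 0.25 with vehicle (n = 4), in males. In females they were 3.69 ± 0.06 with pioglitazone 16 (n = 3), 4.06 ± 0.27 with pioglitazone 63 and 3.96 ± 0.14 with rosiglitazone, against 4.05 ± 0.46 with vehicle (n = 5 each). At day 28, 22 of 36 arrays had miR-335 within 1 log2 unit of their lowest value, among them all 4 of the vehicle males and 2 of 5 of the males given pioglitazone 63.

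At day 90 no miR-335 comparison passed (lowest adjusted p = 0.873). In females the means were 3.87 ± 0.32 with pioglitazone 16, 4.23 ± 0.98 with pioglitazone 63 and 4.59 ± 0.98 with rosiglitazone, against 4.68 ± 0.996 with vehicle. In males they were 4.37 ± 0.72, 4.25 ± 0.71 and 4.64 ± 1.42 in the same order, against 4.28 ± 0.64 with vehicle (n = 5 in each of these 8 groups). The effect at day 90 minus that at day 3, a comparison added after the data were seen, was positive in 6 of 6 sex and treatment combinations, from 0.13 to 2.33, and 0 of 6 passed (limma, 2 under an unadjusted 0.05, lowest adjusted p = 0.256), where 0.332% of all miRNAs passed for pioglitazone 16 males and 0.0% in the other 5. These 6 share vehicle arrays within a sex. Without replicate 2 the 3 female values were negative, at -0.83 for pioglitazone 16, -0.55 for pioglitazone 63 and -0.71 for rosiglitazone.

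Over the 6 sex and day combinations, the mean miR-335 difference from vehicle was -0.58 for pioglitazone 16 (SE 0.24, adjusted p = 0.493), -0.23 for pioglitazone 63 (SE 0.23, adjusted p = 0.696) and -0.25 for rosiglitazone (SE 0.23, adjusted p = 0.647). In those tests 0.0%, 10.6% and 11.3% of all miRNAs passed. The joint test over all 18 treated groups gave adjusted p = 0.283 for miR-335 and 0.205 for miR-378, where 15.6% of all miRNAs passed. For miR-378 the joint test gave adjusted p = 0.0295 without replicate 4 of every group.

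**Figure D2:**
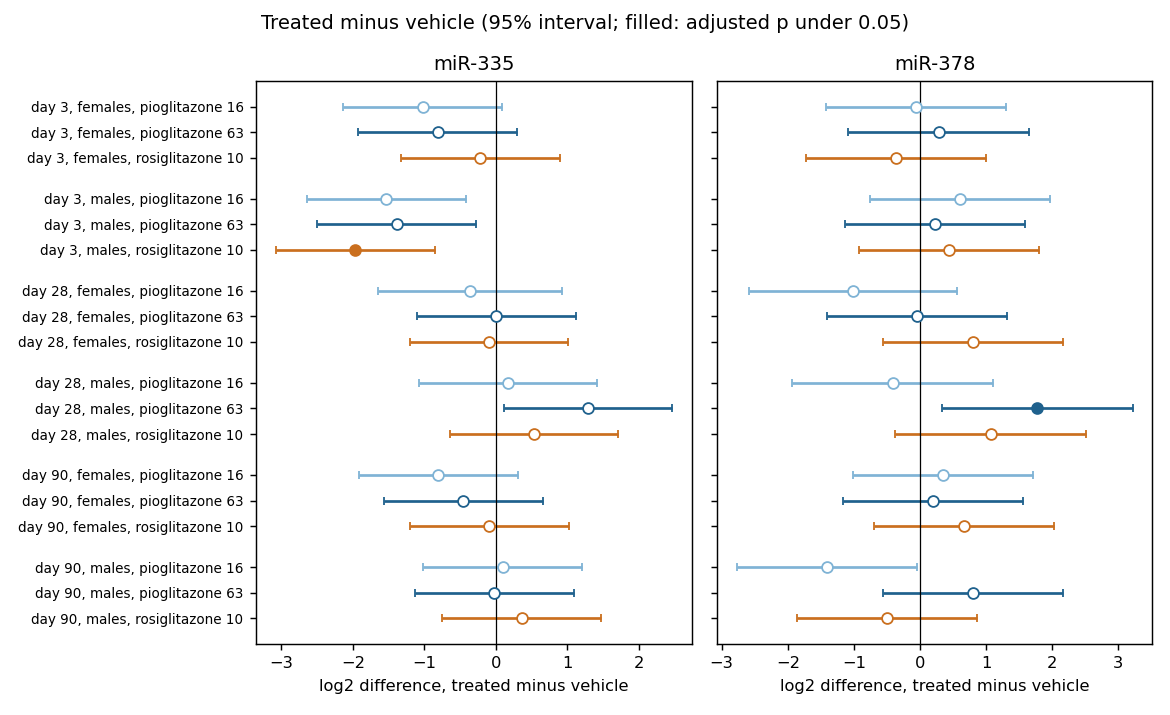
Log2 difference from vehicle (x axis) of miR-335 and miR-378 in the 18 treated groups, by day, sex and treatment down the page; bars are 95% intervals and filled points have an adjusted p under 0.05. The filled points are rosiglitazone males at day 3 for miR-335 (-1.97) and pioglitazone 63 males at day 28 for miR-378 (1.77), and all 6 day-3 points of miR-335 lie below 0, of which 2 in females, pioglitazone 63 (0.0041) and rosiglitazone (0.53), lie above it without replicate 2.

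miR-378 passed in 1 of 18 comparisons of a treated group with vehicle. Its differences from vehicle were positive in 11 and negative in 7. Without replicate 4 of every group, rosiglitazone males at day 28 also passed (2.68, limma adjusted p = 0.00145). That fit takes out a rosiglitazone array of 3.76 and a vehicle array of 8.62. Over these 18 comparisons the share of all miRNAs that passed was highest in males at day 28, with 12.6% for pioglitazone 16, 37.2% for pioglitazone 63 and 24.6% for rosiglitazone. It was 3.65% in rosiglitazone males at day 3, 0.332% in females given pioglitazone 16 for 28 days or pioglitazone 63 for 90 days, and 0.0% in the rest. In day-3 females the means were 8.89 ± 0.50 with pioglitazone 16, 9.23 ± 0.77 with pioglitazone 63 and 8.59 ± 0.36 with rosiglitazone, against 8.95 ± 0.52 with vehicle. In day-3 males they were 8.99 ± 0.63, 8.61 ± 0.64 and 8.82 ± 0.67 in the same order, against 8.38 ± 0.56 with vehicle (SD, n = 5 in each of these 8 groups). The day-3 differences lay between -0.36 and 0.60, and each 95% interval reached 1.36 to either side, so smaller differences than that could not be resolved.

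The miR-378 call was in males given pioglitazone 63 for 28 days, and it rests on low vehicle arrays. The treated arrays read 8.63, 9.10, 8.27, 8.98 and 9.33, against 9.47, 5.16, 8.62 and 5.12 in vehicle males. The treated values are tight, and 0 of 5 lay above every vehicle array, since 2 vehicle arrays were as high and 2 were low. Means were 8.86 ± 0.42 in pioglitazone 63 males (n = 5) and 7.09 ± 2.28 in vehicle males (n = 4). miR-378 rose by 1.77 (SE 0.73, 95% interval 0.32 to 3.22, limma adjusted p = 0.0472). In this comparison 37.2% of all miRNAs passed, 21.6% with higher values in pioglitazone 63 males, and the median over all miRNAs was 0.37.

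Array medians in this comparison were 4.85 ± 0.70 in pioglitazone 63 males and 4.29 ± 0.37 in vehicle males. The difference in miR-378 was 1.20 with arrays centred on their median (adjusted p = 0.239), 0.94 with quantile normalization (adjusted p = 0.204) and 1.62 when the array median entered the fit as a covariate (adjusted p = 0.0784), and the call was lost as well when only the groups compared entered the fit (adjusted p = 0.174). Without vehicle replicate 3 it was 1.13 (adjusted p = 0.306) and without vehicle replicate 5 it was 1.11 (adjusted p = 0.31). The call was also lost without pioglitazone 63 replicate 1, 2, 4 or 5, with adjusted p = 0.0574, 0.0768, 0.0666 and 0.0795. Without the arrays of median under 4.5, which left 1 vehicle array, the difference was -0.80.

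The other arm did not pass in the same comparison. miR-378* read 5.41, 6.39, 6.31, 5.16 and 3.35 in pioglitazone 63 males at day 28, against 4.40, 3.53, 3.74 and 3.29 in vehicle males. The difference was 1.59 (SE 0.74, adjusted p = 0.0811), with 4 of 5 treated arrays above every vehicle array. Among vehicle males, miR-378* passed between day 3 and day 28 (-1.74, SE 0.74, adjusted p = 0.0419), but the difference was 0.21 once the array median entered the fit as a covariate, and the call was lost without day-28 replicate 3, 4 or 5 or day-3 replicate 2, 4 or 5 (adjusted p = 0.0686 to 0.113).

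Other miRNAs linked to fat cells or to introns moved in both directions in pioglitazone 63 males at day 28, as did miRNAs as a whole. Over all 301 miRNAs 21.6% passed higher and 15.6% lower. Of 29 adipocyte miRNAs 8 passed higher, a share near that of all miRNAs, and 2 lower, with a median of 0.94. miR-26b (3.80), miR-107 (3.80) and miR-103 (3.76) rose and miR-204 fell by 3.66. Of 44 intronic miRNAs 17 passed higher and 4 lower, with a median of 1.32. miR-15b (4.59), miR-106b (4.17) and miR-151 (3.96) rose and miR-211 fell by 5.24. miR-15b lies in an intron of Smc4 and miR-106b in one of Mcm7, genes used in chromosome condensation and DNA replication. Both medians lie above the 0.37 of all miRNAs, and miR-378, itself a call, lay above both medians at 1.77. The members named are the passing ones with the largest absolute difference, so they give no measure for miR-378.

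Markers of other cells were higher in the same comparison. Of the fibroblast list 3 of 7 passed higher, with miR-199a-3p at 3.20 and miR-214 at 2.92, and summed log2 levels of 8.91 to 15.02 in pioglitazone 63 males and 7.85 to 14.29 in vehicle males. Higher calls were 1 of 2 in the endothelial list (miR-126, 3.90), 2 of 3 in the red cell list (miR-451, 3.62) and 2 of 5 in the leukocyte list (miR-223, 1.80). In the muscle list 1 of 9 passed higher (miR-499, 1.36). Of the epithelial list 2 of 13 passed, miR-96 (4.43) and miR-183 (3.77), and 9 of 32 Dlk1-Dio3 miRNAs passed lower. Beside these, 21.6% of all miRNAs passed higher and 15.6% lower. The same vehicle arrays of day 28 enter the day-28 against day-3 comparison of vehicle males. The list and marker calls of both comparisons are therefore not independent. The part of these markers in the miR-378 result was not tested.

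Some other miR-378 groups at day 28 held a single low array. In males the means were 6.68 ± 1.65 with pioglitazone 16 (n = 4) and 8.16 ± 2.52 with rosiglitazone (n = 5). In females they were 7.40 ± 3.00 with pioglitazone 16 (n = 3), 8.37 ± 1.11 with pioglitazone 63 and 9.22 ± 0.79 with rosiglitazone, against 8.42 ± 0.29 with vehicle (n = 5 each). In all, 6 of 116 arrays had miR-378 under 6, of which 5 were at day 28, and their array medians were 3.76 to 4.07. In the whole set 23 arrays had a median under 4.5.

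At day 90 in females, miR-378 averaged 8.86 ± 0.59 with pioglitazone 16, 8.71 ± 0.37 with pioglitazone 63 and 9.19 ± 0.91 with rosiglitazone, against 8.52 ± 0.65 with vehicle. In males it averaged 7.60 ± 1.42, 9.81 ± 0.86 and 8.51 ± 0.98 in the same order, against 9.01 ± 0.65 with vehicle (n = 5 in each of these 8 groups). Males given pioglitazone 63 read 8.66, 10.52, 9.17, 10.62 and 10.06, against 9.57, 9.48, 8.12, 8.52 and 9.36 in vehicle males, and 3 of 5 lay above every vehicle array. This is the highest miR-378 group, but the difference was 0.80 (SE 0.69, adjusted p = 0.999). Males given pioglitazone 16 read 8.23, 8.61, 8.03, 8.03 and 5.10, a difference of -1.41 from vehicle (SE 0.69, adjusted p = 0.657).

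The 2 pioglitazone doses were set against each other over all 6 combinations. miR-378 was higher at 63 than at 16 mg/kg/day by 0.86 (SE 0.29, 95% interval 0.28 to 1.44), which is 1.82 times the signal. The unadjusted p was 0.0038, but it did not pass over 301 miRNAs (adjusted p = 0.576), and 0.0% of all miRNAs did, with 12 of 301 under an unadjusted 0.05. For miR-335 the dose difference was 0.35 (SE 0.24, adjusted p = 0.956). The mean miR-378 difference from vehicle was -0.33 for pioglitazone 16 (SE 0.29, adjusted p = 0.811), 0.54 for pioglitazone 63 (SE 0.28, adjusted p = 0.268) and 0.35 for rosiglitazone (SE 0.28, adjusted p = 0.559).

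A different effect of treatment in males and females was not shown for either miRNA with every replicate in the fit. Of 9 male minus female differences, 0 passed for miR-378 (limma, -1.76 to 1.82, 0 under an unadjusted 0.05) and 0 passed for miR-335 (-1.75 to 1.28, 1 under an unadjusted 0.05). Without replicate 2, miR-335 passed for rosiglitazone at day 3 (-2.95, adjusted p = 0.0111). Without replicate 1, miR-378 passed for pioglitazone 63 at day 28 (2.84, adjusted p = 0.0492).

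**Figure D3:**
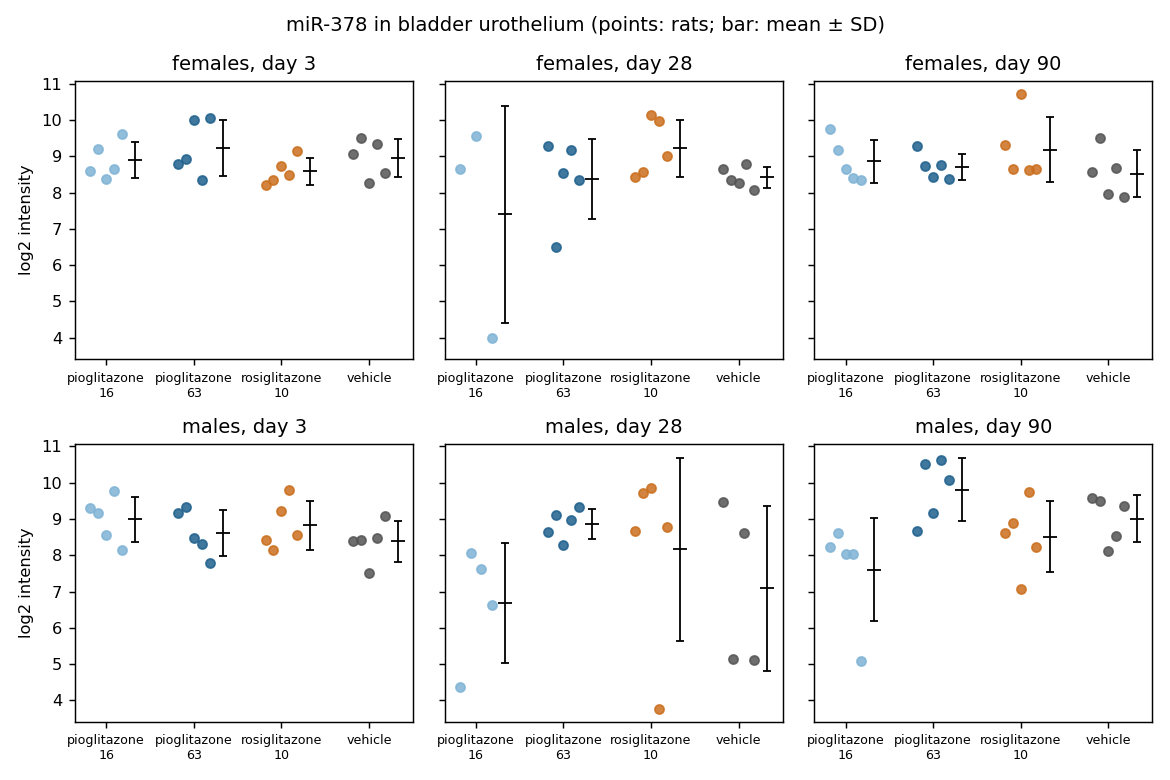
miR-378 on each array (log2 intensity, y axis) by treatment (x axis, dose in mg/kg/day), in 6 panels for sex and day; points are rats in order of replicate number and the bar beside them is mean ± SD. Most arrays lie between 8 and 10, and 6 arrays under 6, 5 of them at day 28, widen the groups that hold them.

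miR-378 and miR-335 showed little likeness from rat to rat. Likeness was measured as Pearson's r of each array's deviation from its group mean, over 116 arrays that share array-wide shifts, and is a description with no test. miR-378 and miR-335 had r = -0.07, and miR-378 and miR-378* had r = 0.17 although both come from 1 hairpin. miR-378* followed the array median (r = 0.87), whereas miR-378 (0.15) and miR-335 (0.25) did so little.

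The miRNAs most like miR-378 were miR-181a (r = 0.83), miR-324-3p (0.77), miR-361 (0.76), miR-99b (0.74) and miR-320 (0.67). Their mature sequences, as far as RefSeq matched them, are shown because none shares the seed of miR-378.
miR-181a: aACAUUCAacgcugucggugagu
miR-324-3p: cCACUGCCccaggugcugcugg
miR-361: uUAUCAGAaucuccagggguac
miR-99b: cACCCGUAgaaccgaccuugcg
With arrays centred on their median, r was 0.85 for miR-181a and 0.77 for miR-324-3p. Without the arrays of median under 4.5 it was 0.61 for miR-181a, 0.54 for miR-324-3p and 0.30 for miR-320. The least like were miR-369-5p (-0.44), miR-376c (-0.41) and miR-539 (-0.41), which turned to 0.09, 0.14 and 0.22 after centring.

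The miRNAs most like miR-335 were miR-218 (r = 0.58), miR-127 (0.58), miR-300-3p (0.56), miR-133b (0.55) and miR-381 (0.54). miR-127, miR-300-3p and miR-381 belong to the imprinted Dlk1-Dio3 cluster, and miR-133b is a muscle miRNA. The least like were miR-141 (-0.60), miR-200a (-0.53) and miR-200b (-0.50), which keep cells epithelial by lowering the Zeb factors. The sequences of the cluster's members and of miR-141 are shown because they mark both ends of the likeness, and no seed is shared among them.
miR-127: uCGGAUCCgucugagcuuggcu
miR-300-3p: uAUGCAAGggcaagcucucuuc
miR-381: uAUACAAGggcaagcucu
miR-141: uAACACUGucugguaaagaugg
With arrays centred on their median, r was 0.60 for miR-127, 0.64 for miR-300-3p and 0.63 for miR-381, but -0.05 for miR-141, -0.08 for miR-200a and -0.17 for miR-200b, so the negative values depend on the scaling. Without the arrays of median under 4.5 the values as deposited were 0.63 for miR-127 and -0.60 for miR-141.

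By list, miR-335 had a positive r with 7 of 7 fibroblast miRNAs (median 0.47), with 8 of 9 muscle miRNAs (median 0.46), with 3 of 3 red cell miRNAs (median 0.33), with 26 of 32 Dlk1-Dio3 miRNAs (median 0.29) and with 0 of 13 epithelial miRNAs (median -0.35), beside a median of 0.04 over all miRNAs. The fibroblast and muscle lists share members, miR-143 among them. After centring the medians were 0.33 for fibroblast, 0.38 for muscle, 0.35 for red cell, 0.47 for Dlk1-Dio3 and -0.20 for epithelial miRNAs, beside 0.17 over all. For adipocyte miRNAs the median was 0.14 with miR-335 and 0.12 with miR-378, and for intronic miRNAs it was 0.06 and 0.05.

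**Figure D4:**
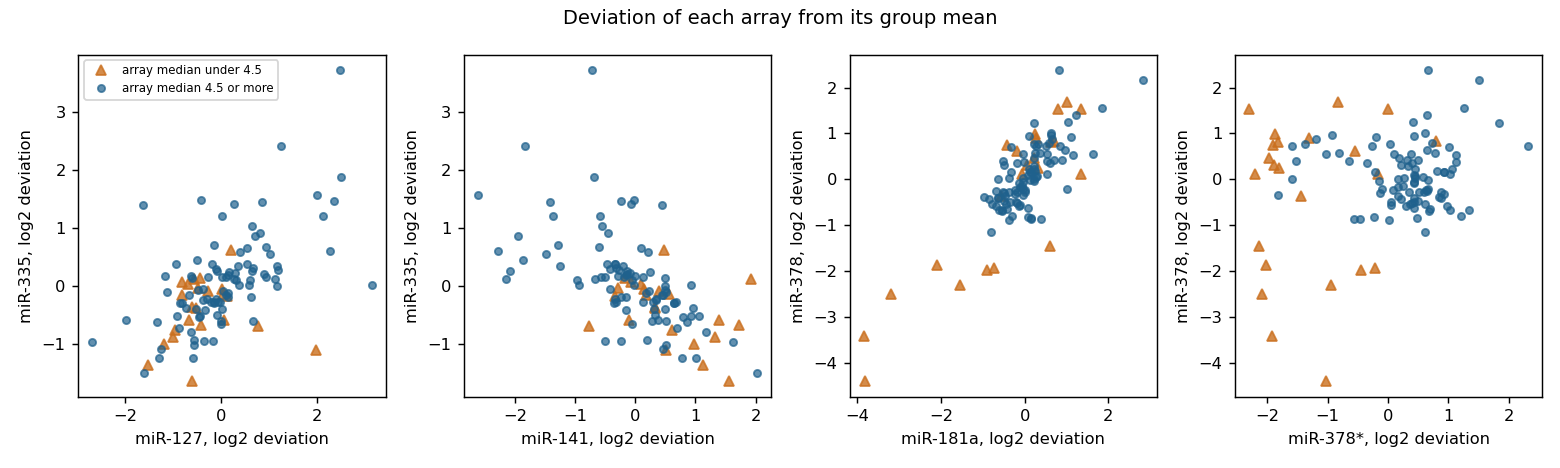
Deviation of each array from its group mean (log2, both axes): miR-335 (y) against miR-127 and miR-141 (x), and miR-378 (y) against miR-181a and miR-378* (x); triangles are arrays with a median under 4.5 and circles the others. The points slope up for miR-127 (r = 0.58) and miR-181a (r = 0.83), down for miR-141 (r = -0.60), and show little slope for miR-378* (r = 0.17).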

How the data were processed

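The table holds log2 intensities of Cy3-labelled RNA on 1-colour Agilent arrays, as deposited by the authors. RMA and limma are named in the submitters' processing notes. How background was corrected and probes summarised or filtered was not given in the sources used here. Of 119 arrays 3 were left out because the labels mark them as failed. The labels give the low pioglitazone dose as 16, used here, and the series text as 13 mg/kg/day. No 2 arrays were identical (highest correlation 0.995). The number of arrays limits the precision.

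All tests used limma 3.58.1 in R 4.3.3, two-sided, with 1 mean per group over 24 groups (92 residual and 2.33 prior degrees of freedom) and Benjamini-Hochberg adjustment over 301 miRNAs within each of 42 contrasts, 6 of them added after seeing the data. The SE rests on 1 moderated variance per miRNA. The fit was tested on simulated data. No detection calls were used, and levels of different miRNAs were not compared.

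Members and lists were chosen with earlier results of these data known. Named were both members, miR-378*, the 5 most and 3 least like miRNAs of each member, and up to 4 passing members of a list with the largest difference in each contrast where a member passed. Sequences are from RefSeq (GRCr8), and 12 of 14 names sought matched. Replicate numbers did not pair the arrays: the median correlation of deviations was -0.011 for same-numbered and -0.008 for other pairs. Alternatives were other scalings, filters, samples and single arrays left out.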

Additional observations from a re-analysis of the deposited data

Results flagged for a closer look

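Both miRNAs were examined in each of the 23 groups of 4 or 5 arrays, which makes 46 sets of values, and 2 single arrays stood far from the rest of their group. Chance marks about 1 in 20 sets, so 2 of 46 is near the number that chance alone would mark. In males given rosiglitazone for 28 days, miR-378 was 3.76 on replicate 4, with the others between 8.68 and 9.85. In males given pioglitazone 16 for 90 days, miR-378 was 5.10 on replicate 5, with the others between 8.03 and 8.61. The medians of these arrays over all miRNAs were 3.76 and 3.81.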

How the results depend on the processing

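The lower miR-335 in vehicle males at day 28 than at day 3 kept its direction under every alternative that gives a value for it. Differences ran from -3.53 to -1.95, all of them against day-28 readings near the arrays' lowest values. Its call held in each alternative that leaves more than 1 vehicle male at day 28, including each single array left out. Without the arrays of median under 4.5, which left 1, the difference was -2.79. The other calls were each lost under some alternative. No fit without the male day-28 groups can give day-28 values of males, and restriction to the brighter miRNAs leaves miR-335 out. Signal near the floor limits miR-335, and the number of arrays limits both. The values below are log2 differences, by sex and day, and the cause of the changes was not tested. With arrays centred on their median, the call was lost for miR-335 in rosiglitazone males day 3 (-1.62) and vehicle males day 90 minus day 3 (-1.82), and for miR-378 in pioglitazone 63 males day 28 (1.20). The call of miR-378* in vehicle males day 28 minus day 3 was lost with this scaling (-0.53), with quantile normalization (-1.04) and without the arrays of median under 4.5 (-1.08). The sign turned for miR-335 in pioglitazone 16 females day 28 (0.010), pioglitazone 16 males day 28 (-0.43), pioglitazone 63 males day 90 (0.55) and rosiglitazone females day 28 (0.20), and in the male minus female effect of pioglitazone 16 at day 3 (0.18) and day 28 (-0.44). It turned for miR-378 in pioglitazone 63 females day 28 (0.064) and day 90 (-0.044), and in the male minus female effect of pioglitazone 16 at day 28 (-0.37), pioglitazone 63 at day 3 (0.14) and rosiglitazone at day 28 (-0.22). With quantile normalization the same 3 calls were lost (-1.58, -1.62 and 0.94). The sign turned for miR-335 in pioglitazone 16 females day 28 (0.10), pioglitazone 63 males day 90 (0.45) and rosiglitazone females day 28 (0.19). It turned for miR-378 in pioglitazone 63 females day 28 (0.45) and females day 90 minus day 3 (0.20), and in the male minus female effect of pioglitazone 16 at day 28 (-0.41), pioglitazone 63 at day 3 (0.25) and rosiglitazone at day 28 (-0.31). With the array median as a covariate, miR-378 in pioglitazone 63 males day 28 lost its call (1.62). The sign turned for miR-335 in pioglitazone 16 males day 28 (-0.056), pioglitazone 63 males day 90 (0.19) and rosiglitazone females day 28 (0.016), and for miR-378* in vehicle males day 28 minus day 3 (0.21). With the failed arrays kept, calls were gained in pioglitazone 63 males day 28 for miR-335 (1.30) and miR-378* (1.66), and for miR-378 in rosiglitazone males day 28 (1.82), the male minus female effect of pioglitazone 63 at day 28 (2.57), vehicle males day 28 minus day 3 (-2.04) and the joint test (F = 2.32). miR-378 turned sign in pioglitazone 16 males day 28 (0.33). With only the groups compared in the fit, the calls of miR-335 in rosiglitazone males day 3 (-1.97) and vehicle males day 90 minus day 3 (-2.003), and of miR-378 in pioglitazone 63 males day 28 (1.77), were lost. Replicate numbers did not pair the arrays. With the replicate number as a block, miR-378 in pioglitazone 63 males day 28 was 1.71 (adjusted p = 0.0592) and miR-378* in vehicle males day 28 minus day 3 was -1.65 (adjusted p = 0.0557), and no other call of miR-378 or miR-335 changed. Without the male day-28 groups, miR-335 in vehicle males minus females was 0.18. Without the 23 arrays of median under 4.5, a choice made after seeing the data, 1 vehicle male is left at day 28. Calls gained against that group are therefore not listed. The difference of miR-378 in pioglitazone 16 males day 28 was then -2.02. The sign turned for miR-335 in pioglitazone 16 males day 28 (-0.40), pioglitazone 63 females day 28 (-0.11), pioglitazone 63 males day 90 (0.19) and the male minus female effect of pioglitazone 16 at day 3 (0.25). It turned for miR-378 at day 28 in pioglitazone 16 females (0.60), pioglitazone 63 females (0.33), pioglitazone 63 males (-0.80) and rosiglitazone males (-0.27), and at day 28 in the male minus female effect of pioglitazone 16 (-2.62), pioglitazone 63 (-1.13) and rosiglitazone (-0.42). It also turned in that of pioglitazone 63 at day 3 (0.12), vehicle males day 28 minus day 3 (1.08), pioglitazone 63 females day 90 minus day 3 (0.34) and vehicle males minus females (0.39). Leaving out replicates in turn gave these ranges for miR-335 in females: -1.49 to 0.0041 in pioglitazone 63 day 3, -0.58 to 0.53 in rosiglitazone day 3, -0.19 to 0.20 in pioglitazone 63 day 28, -0.20 to 0.039 in rosiglitazone day 28 and -0.28 to 0.24 in rosiglitazone day 90. For day 90 minus day 3 in females they were -1.60 to 0.31 in vehicle, -0.83 to 0.99 in the effect of pioglitazone 16, -0.55 to 0.91 in that of pioglitazone 63 and -0.71 to 0.83 in that of rosiglitazone. In males they were -2.42 to -1.60 in rosiglitazone day 3, -0.058 to 0.30 in pioglitazone 16 day 90, -0.48 to 0.27 in pioglitazone 63 day 90, -0.29 to 0.59 in rosiglitazone day 90 and -2.38 to -1.56 in vehicle day 90 minus day 3. Male minus female ranges were -1.99 to 0.50 in pioglitazone 16 day 3, -1.59 to 0.16 in pioglitazone 63 day 3, -2.95 to -1.10 in rosiglitazone day 3, -0.014 to 0.67 in rosiglitazone day 90 and -0.36 to 0.20 in vehicle. For miR-378 in females they were -0.33 to 0.10 in pioglitazone 16 day 3, -0.082 to 0.60 in pioglitazone 63 day 3, -2.15 to 0.78 in pioglitazone 16 day 28, -0.22 to 0.40 in pioglitazone 63 day 28 and -0.37 to 0.21 in pioglitazone 63 day 90 minus day 3. In males at day 28 they were -1.37 to 1.15 in pioglitazone 16, 0.997 to 2.62 in pioglitazone 63, 0.0012 to 2.68 in rosiglitazone and -2.09 to -0.46 in vehicle minus day 3. Male minus female ranges were -0.45 to 0.64 in pioglitazone 63 day 3, -0.67 to 2.11 in pioglitazone 16 day 28, 1.13 to 2.84 in pioglitazone 63 day 28 and -0.53 to 1.98 in rosiglitazone day 28. Mean effects ranged from -0.77 to 0.045 for pioglitazone 16 and from -0.022 to 0.56 for rosiglitazone, and the joint F from 1.06 to 2.51. For miR-378* they were 1.27 to 2.08 in pioglitazone 63 males day 28 and -2.36 to -1.33 in vehicle males day 28 minus day 3. Calls were gained too. Without replicate 2, miR-335 passed in the male minus female effect of rosiglitazone at day 3. Without replicate 1, miR-378 passed in that of pioglitazone 63 at day 28. Without replicate 4, miR-378 passed in rosiglitazone males day 28 and the joint test. In vehicle males day 28 minus day 3 it passed without replicate 1 or 4, or without vehicle day-28 replicate 1. Without pioglitazone 63 replicate 5, miR-378* passed in pioglitazone 63 males day 28.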
